A study of Mus musculus with 8 samples.

Results

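The Reg genes encode small secreted proteins of the C-type lectin family, and the 7 named members Reg1, Reg2, Reg3a, Reg3b, Reg3d, Reg3g and Reg4 were taken by symbol from an expression table of 22180 genes in mouse pancreas. Each of the 7 was measured by 1 row of the array, and no row shared between several genes named one of them. Lmna knockout (LmnaKO, here KO, 4 arrays) was set against LmnaWT (here WT, 4 arrays), in total RNA of the pancreas of C57 BL6 mice 6 days after tamoxifen. Tamoxifen was injected intraperitoneally at 3 mg per 40 g of body weight in both groups, and each group held 3 males (replicates 1 to 3) and 1 female (replicate 4). By the series title, Lmna was ablated in the acinar cells, which make the digestive enzymes. No source used here names the driver of the deletion or the animals' ages, or says whether each array was a separate animal, so the p-values measure only the spread between these samples.

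In the rodent pancreas Reg1 and Reg2 are abundant acinar secretory products, known as pancreatic stone or thread proteins. Reg3b, first named pancreatitis-associated protein, is a textbook acute-phase protein of the inflamed acinar cell, and Reg3g, its close relative, is best known as an antibacterial lectin of the gut. Reg3 genes are induced through IL-6 family cytokines and IL-22, whose receptors act through JAK kinases and the transcription factor STAT3. Acinar secretory genes in general depend on PTF1, a complex of PTF1A, an E-box partner and RBPJL or RBPJ.

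Of the 7 genes, 6 lie side by side on chromosome 6, in the order Reg3b, Reg3d, Reg3a, Reg2, Reg1 and Reg3g, with no other protein-coding gene between them in RefSeq GRCm38.p6. Reg4 lies alone on chromosome 3. All 7 matched an entry of the RefSeq promoter table. The 250 bases before each start of the 6 clustered genes are shown here because these genes were the members with signal well above the array median. Capitals mark 2 half-sites of PTF1, the RBPJ-type motif TTCCCA on either strand and the E-box CANNTG, and where both overlap, as in Reg2 at position -195, they run together.
Reg3b, chr6:78370635-78370884, plus strand: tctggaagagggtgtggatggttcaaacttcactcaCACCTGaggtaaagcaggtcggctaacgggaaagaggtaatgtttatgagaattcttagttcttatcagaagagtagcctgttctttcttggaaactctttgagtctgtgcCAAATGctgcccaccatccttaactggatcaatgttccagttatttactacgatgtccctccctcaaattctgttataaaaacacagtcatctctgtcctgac
Reg3d, chr6:78378866-78379115, minus strand: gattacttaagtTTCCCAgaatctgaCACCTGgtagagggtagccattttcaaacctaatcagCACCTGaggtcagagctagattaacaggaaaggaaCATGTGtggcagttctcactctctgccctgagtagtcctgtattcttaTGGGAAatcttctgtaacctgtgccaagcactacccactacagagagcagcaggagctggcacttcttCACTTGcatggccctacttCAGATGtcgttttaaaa
Reg3a, chr6:78380459-78380708, plus strand: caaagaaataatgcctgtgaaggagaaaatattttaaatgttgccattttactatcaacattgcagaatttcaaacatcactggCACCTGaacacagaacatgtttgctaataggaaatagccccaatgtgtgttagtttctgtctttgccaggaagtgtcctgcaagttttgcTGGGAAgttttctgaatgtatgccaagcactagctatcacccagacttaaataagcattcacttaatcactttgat
Reg2, chr6:78404905-78405154, plus strand: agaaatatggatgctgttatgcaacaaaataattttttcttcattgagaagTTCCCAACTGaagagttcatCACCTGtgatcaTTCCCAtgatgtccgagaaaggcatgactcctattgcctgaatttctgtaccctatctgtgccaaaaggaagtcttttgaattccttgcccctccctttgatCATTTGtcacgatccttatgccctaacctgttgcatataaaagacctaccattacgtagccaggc
Reg1, chr6:78425733-78425982, plus strand: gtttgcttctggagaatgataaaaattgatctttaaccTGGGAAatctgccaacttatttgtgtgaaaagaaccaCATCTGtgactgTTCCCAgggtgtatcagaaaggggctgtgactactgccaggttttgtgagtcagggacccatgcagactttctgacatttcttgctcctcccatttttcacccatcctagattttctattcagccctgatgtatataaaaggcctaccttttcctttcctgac
Reg3g, chr6:78468875-78469124, minus strand: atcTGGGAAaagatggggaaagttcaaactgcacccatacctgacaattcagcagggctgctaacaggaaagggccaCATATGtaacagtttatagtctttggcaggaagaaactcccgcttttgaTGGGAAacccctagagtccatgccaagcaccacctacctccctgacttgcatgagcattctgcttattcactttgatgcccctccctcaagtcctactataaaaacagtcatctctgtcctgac
The E-box was found upstream of 7 of 7 Reg genes and in 66.2% of 32851 RefSeq promoters of the same length. TTCCCA was found upstream of 5 of 7, the exceptions being Reg3b and Reg4, and in 21.6% of all promoters. The STAT motif TTCNNNGAA was found for Reg3b at position -129 and for Reg3d at position -238, where it overlaps TTCCCA, and in 7.02% of all promoters. The AP-1 motif TGANTCA was found for Reg1 alone, at position -117, and in 6.75% of all promoters. Positions give the first base of a match, counted from the RefSeq start, and both strands were searched. A match describes letters only, and a motif missing from these windows says nothing of its factor. In global alignments of these windows Reg3b and Reg3g shared 68.4% of alignment columns and Reg1 and Reg2 56.9%, while the other 19 pairs shared 44.9% to 52.7%.

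**Figure D1:**
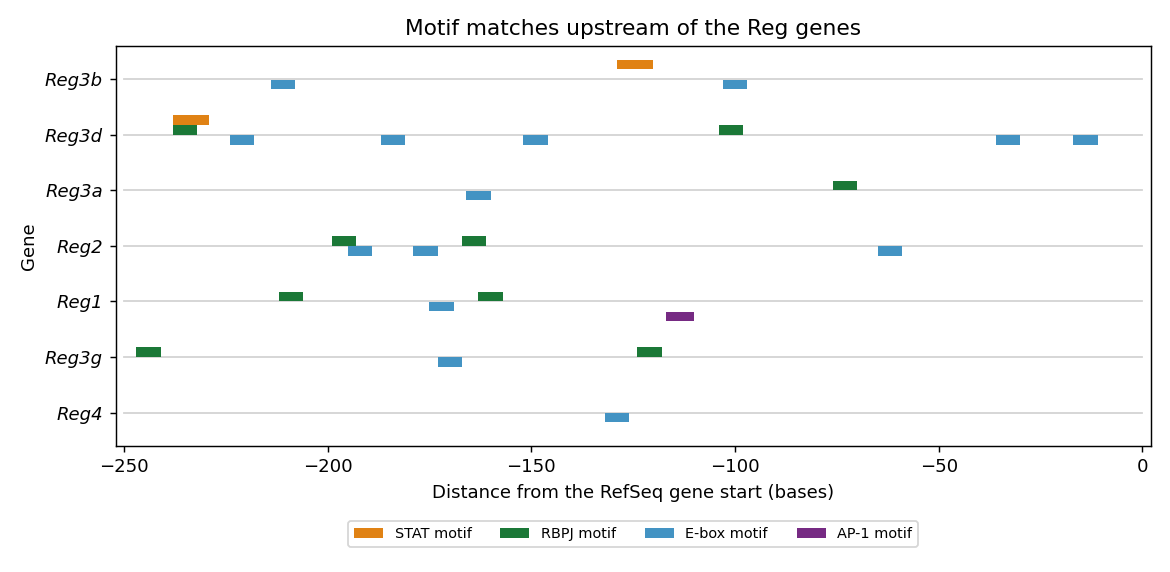
Position of motif matches in the 250 bases before the RefSeq start of each Reg gene (x axis, bases from the start; the upper 6 genes in their order on chromosome 6, Reg4 from chromosome 3 last). Bars give each match to scale, with the STAT motif in Reg3b and Reg3d, AP-1 in Reg1 and the E-box in all 7.

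Values are log2 expression, and a difference is KO minus WT. The targeted gene Lmna read 2.33, 2.58, 2.73 and 2.61 in KO 1 to KO 4, against 2.54, 3.13, 2.67 and 2.88 in WT 1 to WT 4 (difference -0.24 ± 0.15 SE, limma adjusted p = 0.264), so this dim row does not check the genotype labels. The 90th percentile of an array was 5.62 to 5.69 in KO and 4.99 to 5.39 in WT. The part of this difference in the results was not tested beyond the renormalised alternatives.

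In KO pancreas Reg3a and Reg3d fell, to 0.306 and 0.473 times their WT levels. Reg1, Reg2, Reg3b and Reg3g had lower KO means too, by 0.28 to 0.71 log2 units, without passing the test, and Reg4 gave no signal above the lower part of the array. Counted at an adjusted p of 0.05 (limma, Benjamini-Hochberg over all genes), 2 of 7 members were lower and 0 higher in KO, where 6.99% of all genes tested were lower and 14.6% higher (21.6% in either direction). The 1551 genes behind the lower share became 459 to 2357 when single arrays were left out, while Reg3a and Reg3d stayed called each time. At an unadjusted p under 0.05, 5 of the 7 were lower, as were 17.2% of all genes. All 7 had the lower mean in KO, as did 55.2% of all genes. The median change of the 7 genes was -0.65, beside -0.06 over all genes. Among the 268 genes with a mean level of at least 8, which include 6 of the 7 members, the median change was 0.08 and 14.2% were called lower. In that class 13 genes were called lower by at least 1 log2 unit, and Reg3a and Reg3d are 2 of them.

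**Figure D2:**
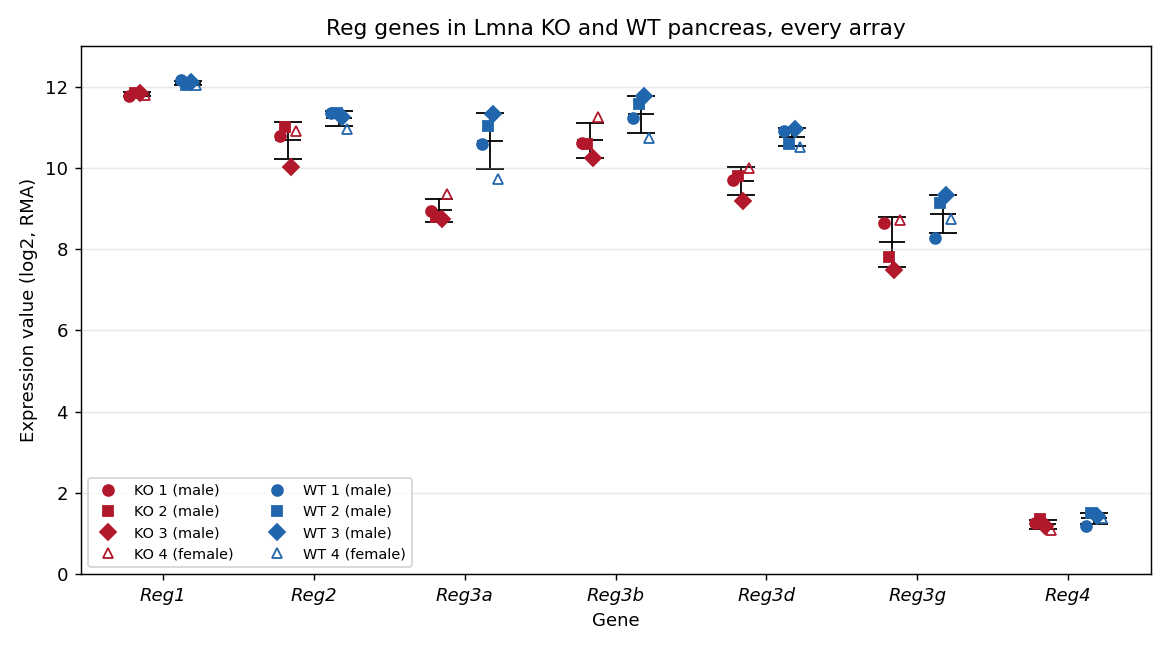
Expression value of each Reg gene (y axis, log2 after RMA, from 0) on every KO (red) and WT (blue) array, with the mean and SD of each group as black bars and the females as open triangles. Reg1, Reg3a and Reg3d show no overlap between the groups, and Reg4 sits between 1.08 and 1.51 on all 8 arrays.

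Reg3a, a secreted lectin of the Reg3 subfamily, read 8.94, 8.79, 8.73 and 9.34 in KO 1 to KO 4, against 10.58, 11.03, 11.31 and 9.72 in WT 1 to WT 4. All KO arrays lay below all WT arrays, but the 2 females were the closest to each other, with the highest KO and the lowest WT value. The groups averaged 8.95 ± 0.28 in KO and 10.66 ± 0.70 in WT (SD, n = 4 each). The fall was 1.71 log2 units (fitted difference -1.71 ± 0.31 SE, 95% interval -2.40 to -1.02, limma adjusted p = 0.00669). The call held in each of the 20 alternatives fixed for it, with differences of -2.15 to -1.49.

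Reg3d, the mouse relative of the hamster islet neogenesis protein INGAP, read 9.69, 9.79, 9.19 and 10.00 in KO 1 to KO 4, against 10.92, 10.60, 10.96 and 10.52 in WT 1 to WT 4. The groups were separated by 0.52 log2 units between the highest KO and the lowest WT array, the widest gap of the 7 members. Means were 9.67 ± 0.34 in KO and 10.75 ± 0.22 in WT (SD, n = 4 each), a difference of -1.08 ± 0.19 SE (95% interval -1.50 to -0.66, limma adjusted p = 0.00563). This call held in the same 20 alternatives too.

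Reg3b read 10.60, 10.59, 10.24 and 11.26 in KO 1 to KO 4, against 11.22, 11.57, 11.77 and 10.73 in WT 1 to WT 4. Its groups overlapped through the females, since KO 4 was above WT 4 and WT 1 while the 3 male KO arrays were below all WT arrays. The difference of -0.65 ± 0.26 SE did not pass (10.67 ± 0.43 in KO and 11.32 ± 0.46 in WT, SD, n = 4 each, 95% interval -1.23 to -0.06, limma adjusted p = 0.1). It passed without WT 4 (-0.85, limma adjusted p = 0.0498) and among males only (-1.04, limma adjusted p = 0.0365).

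Reg3g read 8.64, 7.82, 7.48 and 8.72 in KO 1 to KO 4, against 8.27, 9.14, 9.34 and 8.74 in WT 1 to WT 4. Here KO 2 and KO 3 were low, whereas KO 1 and KO 4 lay within the WT range. With 8.17 ± 0.61 in KO and 8.87 ± 0.47 in WT (SD, n = 4 each) the difference was -0.71 ± 0.32 SE (95% interval -1.41 to 0.00276, limma adjusted p = 0.129). The pooled SD of Reg3g within groups, 0.55, was larger than that of 95.5% of the 268 genes with a mean level of at least 8. Reg3a (0.53) and Reg3b (0.44) exceeded 95.1% and 91.8% of them. These SDs describe how far arrays of 1 genotype lay apart.

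Reg1, the stone protein, read 11.76, 11.85, 11.85 and 11.80 in KO 1 to KO 4, against 12.17, 12.04, 12.10 and 12.05 in WT 1 to WT 4. Every KO array was below every WT array, yet the step was small, and the values sat near the array maxima of 12.35 to 12.47. The means were 11.81 ± 0.04 in KO and 12.09 ± 0.06 in WT (SD, n = 4 each), with a difference of -0.28 ± 0.10 SE (95% interval -0.50 to -0.05, limma adjusted p = 0.0751). An exact permutation test of the 8 values, two-sided, gave p = 0.0286, and no smaller p is possible with 4 arrays a group. The pooled SD of 0.05 was smaller than that of almost all genes, so the variance that limma shares across genes widened this error. An ordinary linear model without that sharing passed (-0.28 ± 0.04 SE, adjusted p = 0.0184 over all genes), whereas median centring of the arrays brought the difference to -0.14 (limma adjusted p = 0.39).

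Reg2, its tandem neighbour and a second stone protein, read 10.78, 10.99, 10.02 and 10.90 in KO 1 to KO 4, against 11.34, 11.35, 11.25 and 10.95 in WT 1 to WT 4. One array, KO 3, was far below the rest, and KO 2 just exceeded WT 4. Means were 10.67 ± 0.45 in KO and 11.22 ± 0.19 in WT (SD, n = 4 each), a difference of -0.55 ± 0.21 SE (95% interval -1.02 to -0.07, limma adjusted p = 0.0886) that became -0.33 without KO 3. Reg4, a member known mainly from the gut, read 1.26, 1.37, 1.19 and 1.08 in KO 1 to KO 4, against 1.19, 1.51, 1.44 and 1.38 in WT 1 to WT 4. These values lie below the median of every array (2.13 to 2.33), so no change of Reg4 could be read (-0.15 ± 0.12 SE, limma adjusted p = 0.351).

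Over the family, 3 of 7 members had groups that did not overlap, all lower in KO, where 12.1% of all genes had that pattern and 27.4% did not overlap in either direction. The genes that flank the cluster were dim: Lrrtm1, a neuronal leucine-rich repeat protein, averaged 1.83 ± 0.23 in KO and 2.39 ± 0.43 in WT (SD, n = 4 each). Ctnna2, a neuronal catenin, averaged 1.17 ± 0.05 in KO and 1.31 ± 0.12 in WT. On the other side Gm20594 averaged 0.79 ± 0.18 in KO and 1.17 ± 0.26 in WT, and the neuronal protein Lrrtm4 1.52 ± 0.24 in KO and 1.68 ± 0.13 in WT. None of these 4 neighbours passed the test (limma adjusted p of 0.0881 to 0.42). Signal well above the array median was seen in this stretch for the 6 Reg genes and not for these neighbours. Reg3b and Reg3g, like Reg1 and Reg2, are closely related genes, and whether their transcripts share probes was not tested, so each value may hold signal of its relative.

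Arrays of the same replicate number were taken as pairs, a pairing read from their deviations across genes and weak for numbers 3 and 4. Differences within same-numbered pairs showed how the fall varied. Reg3a differed by -1.65, -2.24 and -2.58 in the male pairs 1 to 3 and by -0.37 in the female pair. Reg3d differed by -1.23, -0.81 and -1.77 in the male pairs and by -0.52 in the female pair. Reg3b differed by -0.62, -0.97 and -1.53 in the male pairs and by 0.53 in the female pair. In these 3 genes, and in Reg2 (-0.05 in the female pair), the female pair lay above all 3 male pairs. All 4 pairs were lower in KO for Reg1, Reg2, Reg3a and Reg3d, and so were they for 22.7% of all genes, while Reg3b, Reg3g and Reg4 were lower in 3 of 4 pairs. For Reg1, Reg3a and Reg3d, whose groups do not overlap, any pairing would give 4 lower pairs, so this count adds nothing to the separation.

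**Figure D3:**
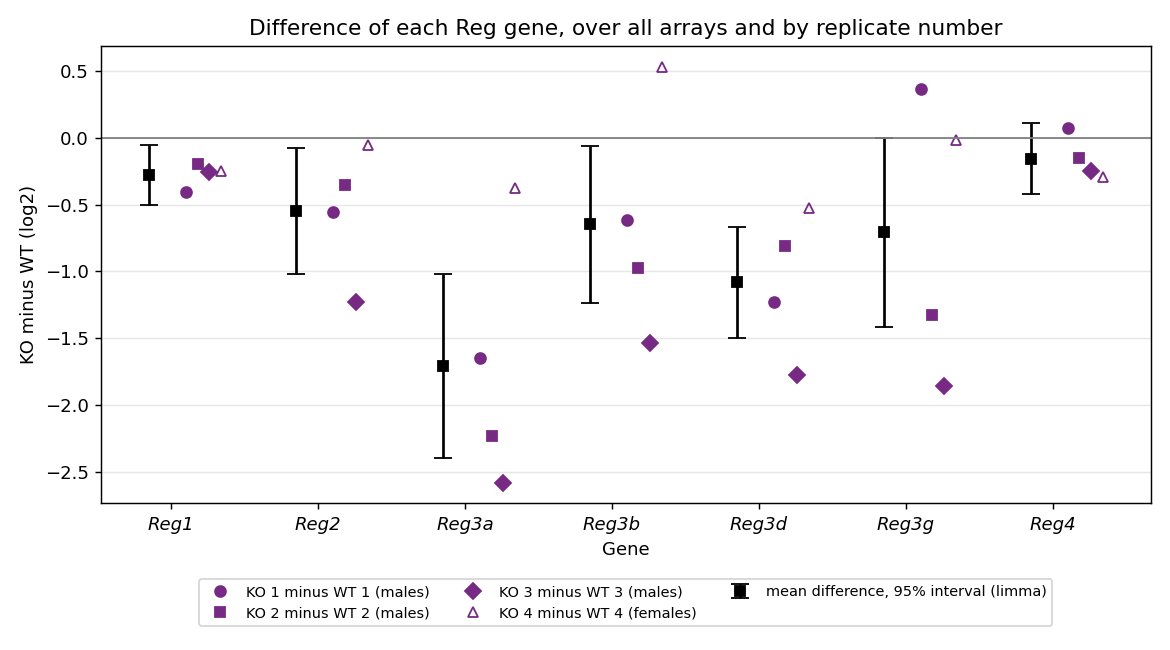
KO minus WT (y axis, log2) for each Reg gene. Squares with bars give the mean difference over all arrays with its 95% interval from limma, and the other symbols give the difference within each same-numbered pair, the female pair as open triangles, which for Reg2, Reg3a, Reg3b and Reg3d lie above the male pairs.

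The difference between the sexes was tested in a fit of 4 genotype-by-sex groups. The female change minus the male change was 1.78 ± 0.41 SE for Reg3a (unadjusted p = 0.00284 by limma) and 1.57 ± 0.39 SE for Reg3b (unadjusted p = 0.00419 by limma). For Reg3d it was 0.75 ± 0.41 SE (unadjusted p = 0.107 by limma). Each female change rests on 1 array a genotype. These errors come from the spread among the males and from the variance that limma shares across genes, and the females are assumed to vary like the males. After adjustment over all genes none of the 7 members passed (limma adjusted p of 1 for each), and 0.00451% of all genes, 1 gene, did. With 1 female array per genotype, sex and replicate 4 cannot be told apart. Among the 3 males per genotype, Reg3a (-2.15, limma adjusted p = 0.0126), Reg3d (-1.27, limma adjusted p = 0.0299) and Reg3b passed as lower, 3 of 7 members, where 0.654% of all genes did.

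The genes whose deviations from the genotype means were most like those of each member were looked up among 983 genes. These had a mean of at least 6 and an SD of deviations of at least 0.2. Predicted genes, small RNAs, immunoglobulin segments and Reg genes were left out. The likeness is Pearson's r over the 8 arrays, given as a description of few points, and the genes named are the highest of that search. Ifitm3, an interferon-induced membrane protein, came first for Reg3a (r = 0.98) and for Reg3b (r = 0.93), and these 2 Reg genes shared r = 0.92 with each other. Ifitm3 itself read 8.78, 8.68, 8.63 and 9.07 in KO 1 to KO 4, against 8.28, 8.57, 8.54 and 7.73 in WT 1 to WT 4. As in Reg3a, KO 4 was the highest KO array and WT 4 the lowest WT array, but the KO mean of Ifitm3 was the higher one (0.51 ± 0.20 SE, limma adjusted p = 0.0851). Elob came second for Reg3a (r = 0.93) and Plp2 for Reg3b (r = 0.80). For Reg3d the aminopeptidase Anpep (r = 0.93) and the syntrophin Sntb1 (r = 0.89) led, and for Reg2 the adhesion molecule Ceacam1 (r = 0.96) and the kallikrein Klk1b5 (r = 0.88). For Reg1 they were Rab11b (r = 0.92) and Ube4b (r = 0.89). For Reg3g they were the sterol regulator Insig1 (r = 0.83) and Rbpjl (r = 0.77). Reg4, at the bottom of the scale, was most like Neat1 (r = 0.80) and Snrnp70 (r = 0.75). Among members, Reg2 and Reg3d shared r = 0.84, while Reg1 and Reg3g gave r = -0.69. Reg1 hardly varied within a genotype (pooled SD 0.05), so each r of Reg1 rests on very small deviations.

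The genes that act upstream of Reg3 induction were listed by role. Each list count below stands beside the shares of all genes tested, 14.6% higher and 6.99% lower in KO. Of 13 measured cytokines of the IL-6, IL-22 and IL-17 groups, 0 were higher and 1 lower in KO, and 12 of them had a mean under 3, so their levels were near the floor. Il17a was the lower one (-0.52 ± 0.15 SE, limma adjusted p = 0.0382), and its call was lost in 15 of 19 alternatives. Il6 averaged 1.08 in KO and 1.05 in WT, and Il22 0.64 in KO and 0.84 in WT. The cytokine list had a median change of -0.37.

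Of 19 measured receptors, kinases and STATs, 6 were higher and 2 lower in KO, with a median change of 0.17. Il6st, the shared receptor subunit gp130, read 7.25, 7.92, 7.83 and 7.79 in KO 1 to KO 4, against 6.64, 6.25, 6.64 and 6.56 in WT 1 to WT 4 (1.17 ± 0.17 SE, limma adjusted p = 0.00302). Osmr, the oncostatin M receptor, rose by 1.85 ± 0.24 SE (limma adjusted p = 0.00239), and Jak2, the kinase, by 1.34 ± 0.24 SE (limma adjusted p = 0.00597). All KO arrays lay above all WT arrays in these 3 genes, and of their calls only that of Jak2 was lost in an alternative, males only. Stat3 had a higher KO mean without passing (0.55 ± 0.20 SE, limma adjusted p = 0.0716), and passed after median centring. Il22ra1, the epithelial IL-22 receptor, differed by -0.39 ± 0.16 SE (limma adjusted p = 0.103) and passed as lower after a second quantile normalization or cyclic loess. Extl3, a glycosyltransferase reported as a Reg protein receptor, was lower by the test (-0.69 ± 0.21 SE, limma adjusted p = 0.0422), a call lost in 12 of 20 alternatives. The receptor Lifr was the other gene called lower (-0.78 ± 0.19 SE, limma adjusted p = 0.0189). All KO arrays of Lifr lay below all WT arrays, and its call was lost in 3 of 20 alternatives.

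Of 20 genes listed as targets and feedback genes of JAK and STAT signalling, not of STAT3 alone, 2 were higher and 0 lower in KO, with a median change of 0.31. Socs3, the feedback inhibitor most used as a readout of STAT3, averaged 3.47 ± 0.65 in KO and 3.19 ± 0.58 in WT (SD, n = 4 each, limma adjusted p = 0.564). Socs2 rose (1.48 ± 0.28 SE, limma adjusted p = 0.00793), a call lost among males only. The phosphatase Ptpn11 passed narrowly (0.41 ± 0.13 SE, limma adjusted p = 0.0493), and its call was lost in 14 of 20 alternatives, in one of which, a second quantile normalization, the direction turned.

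Among 26 measured acute-phase and pancreatitis genes, 4 were higher and 3 lower in KO, with a median change below 0.01. A mean under 3, near the floor, was found for 13 of them. Ceruloplasmin Cp rose (1.67 ± 0.28 SE, limma adjusted p = 0.00504), while the inter-alpha-trypsin inhibitor Itih4 (-1.97 ± 0.32 SE, limma adjusted p = 0.00473) and the hepcidin Hamp2 (-2.70 ± 0.49 SE, limma adjusted p = 0.00671) fell. Lcn2, the siderophore-binding lipocalin, read 5.62, 6.69, 7.09 and 7.39 in KO 1 to KO 4, against 3.05, 5.85, 4.55 and 4.84 in WT 1 to WT 4. The groups overlapped only through KO 1 and WT 2, and the difference of 2.12 ± 0.55 SE passed (limma adjusted p = 0.0252) but was lost in 8 of 20 alternatives. Nupr1, a stress protein first found in pancreatitis, was higher (0.70 ± 0.21 SE, limma adjusted p = 0.0386), a call lost in 11 of 20 alternatives. Saa3, a serum amyloid, read 4.90, 9.44, 7.13 and 10.17 in KO 1 to KO 4, against 3.93, 9.45, 6.13 and 6.02 in WT 1 to WT 4. Its spread within each genotype was larger than the difference between them (1.53 ± 1.29 SE, limma adjusted p = 0.39).

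**Figure D4:**
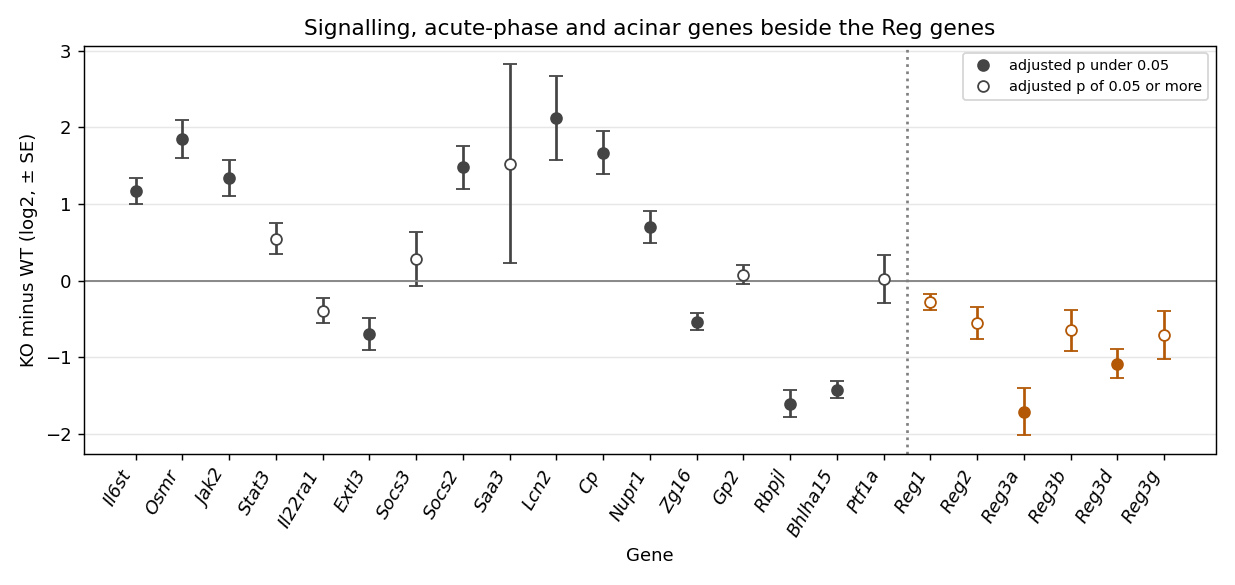
KO minus WT with its SE (y axis, log2, n = 4 per group) for some genes of JAK and STAT signalling, the acute phase and acinar identity (grey). The 6 clustered Reg genes are orange, right of the dotted line. Filled symbols passed an adjusted p of 0.05. Il6st, Osmr, Jak2, Socs2, Saa3, Lcn2 and Cp lie above 1 and all 6 Reg genes below 0. Called genes not drawn include Lifr (-0.78), Itih4 (-1.97) and Hamp2 (-2.70), which were lower, and Rbpj (1.19), which was higher.

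Of 17 measured genes on a list made up mainly of secreted antimicrobial proteins and lectins, 1 was higher and 4 lower in KO, with a median change of -0.20. A mean under 3 was found for 10 of them, so count and median rest partly on genes near the floor. Among the lower ones Itln1 (1.79 in KO, 2.32 in WT) and Mbl1 (1.11 in KO, 1.73 in WT) were of this kind. Clps, counted in this list and among the acinar enzymes, gave the median of both lists (-0.20). Zg16, the lectin of the zymogen granule, read 11.06, 11.04, 10.74 and 10.89 in KO 1 to KO 4, against 11.44, 11.53, 11.40 and 11.50 in WT 1 to WT 4 (-0.53 ± 0.11 SE, limma adjusted p = 0.0127). Its call was lost among males only and after a second quantile normalization, as was that of the phospholipase Pla2g1b, also counted among the acinar enzymes (-0.51 ± 0.11 SE, limma adjusted p = 0.0136). Gp2, the main membrane protein of the granule, averaged 11.17 ± 0.14 in KO and 11.09 ± 0.15 in WT (SD, n = 4 each, limma adjusted p = 0.654). The lysozyme Lyz1 was the higher one (1.36 ± 0.29 SE, limma adjusted p = 0.0119), its call lost among males only and in the ordinary linear model. It averaged 3.06 ± 0.65 in KO and 1.71 ± 0.22 in WT (SD, n = 4 each), so its WT values were near the floor. Lyz1 has a close relative in Lyz2, a macrophage marker. Over these 5 lists together, 13 of 95 genes were higher and 10 lower, with a median of -0.06. Over all genes 14.6% were higher and 6.99% lower, and the median was -0.06 too. The counts over the 5 lists moved with the processing, from 3 to 20 higher and from 2 to 19 lower.

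The Reg genes were set beside markers of the cell types that could supply their RNA. In bulk tissue, fewer cells of a type and less RNA per cell cannot be told apart. Of 19 measured acinar enzymes 0 were higher and 6 lower in KO, and their mean level was 9.95 to 10.16 in KO arrays and 10.57 to 10.64 in WT arrays. Cela3a (-3.24 ± 0.24 SE), Ctrc (-2.24 ± 0.23 SE) and Amy2b (-1.89 ± 0.14 SE) had the smallest p (limma adjusted p of 0.000437 to 0.00111). Of 12 acinar factors 1 was higher and 3 lower, at a mean level of 5.16 to 5.30 in KO and 5.40 to 5.53 in WT. Rbpjl, the acinar subunit of PTF1, read 7.42, 7.19, 7.21 and 7.38 in KO 1 to KO 4, against 8.55, 9.26, 9.11 and 8.69 in WT 1 to WT 4 (-1.60 ± 0.17 SE, limma adjusted p = 0.00126). Bhlha15 (-1.42 ± 0.12 SE, limma adjusted p = 0.00057) fell as well. Rbpj, the widely expressed counterpart of Rbpjl, was higher (1.19 ± 0.23 SE, limma adjusted p = 0.00931), a call lost among males only and after a second quantile normalization or cyclic loess, and Ptf1a averaged 5.86 ± 0.55 in KO and 5.84 ± 0.52 in WT.

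The Reg values were also taken relative to the mean of these 19 enzymes on the same array, a scale chosen after seeing the data. The enzyme mean was 10.06 ± 0.09 in KO and 10.61 ± 0.04 in WT (SD, n = 4 each), a difference of -0.54. The median change of the 19 enzymes was smaller, at -0.20, and Cela3a, Ctrc and Amy2b weigh heavily in the mean. This scale adds the same 0.54 to the change of every gene. A sign that turns on it, as for Reg1 and Reg4, shows only that the gene differed by less than the enzyme mean. These 2 genes had all KO arrays above all WT arrays there (Reg1 0.27, Reg4 0.39, exact two-sided permutation p = 0.0286 each). Reg4 lies near the floor and the enzyme means of the 2 groups do not overlap, so its p reflects the enzyme mean and not Reg4. On the enzyme scale Reg3a differed by -1.17 (exact two-sided permutation p = 0.0571) and Reg3d by -0.54 (exact p = 0.0857). The same exact test gave p = 0.0286 for Reg3a and for Reg3d on the deposited scale, the smallest it allows. On the enzyme scale the KO and WT arrays of both genes overlapped. Reg2 differed by -0.01, Reg3b by -0.11 and Reg3g by -0.16 (exact p of 1, 0.8 and 0.657).

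Of the markers of gut epithelium, the other main source of Reg3 proteins, 18 of 19 had a mean under 3, among them Vil1, Lct, Sis and Cdx2. The mean level of the list was 1.82 to 1.97 in KO and 1.96 to 2.19 in WT, with 1 marker higher and 4 lower. Islet markers had 0 higher and 1 lower of 12, and spanned 3.60 to 4.77 in KO and 3.51 to 4.57 in WT. Duct markers had 2 higher and 1 lower of 8, at 4.39 to 4.70 in KO and 4.27 to 4.70 in WT.

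Macrophage markers had 4 higher and 0 lower of 10, at 5.28 to 6.86 in KO and 3.77 to 5.61 in WT, and stellate markers 2 higher and 0 lower of 9, at 5.14 to 6.67 in KO and 4.60 to 5.83 in WT. Neutrophil markers had 0 called of 9, at 1.86 to 3.56 in KO and 2.04 to 2.49 in WT. Lymphoid markers had 0 higher and 1 lower of 11, at 1.88 to 2.71 in KO and 2.03 to 2.91 in WT. A mean under 3, near the floor, was found for 7 of the neutrophil and 8 of the lymphoid markers, so few of them could show a change. The part of these markers in the Reg differences was not tested.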

How the data were processed

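Total RNA (100 ng per sample, per the labels' protocols) was measured on 8 whole-transcript arrays. The authors deposited 1 table of 41345 rows as log2 values, made with oligo, RMA and limma, per the submitters' processing notes; log2 is read from the range. Columns were matched to samples by name, with 0 left unmapped. Of the rows, 23521 had 1 gene symbol, 1814 several and 16010 none; the last 2 kinds were not tested. For 1082 genes in several rows the row of highest mean was kept, giving 22180 genes.

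Genotype was fitted with limma 3.58.1 in R 4.3.3 (lmFit and eBayes), p-values were adjusted over all genes (Benjamini-Hochberg), calls were made at 0.05, and the fit was tested on simulated data. Precision is limited by the number of arrays, and depth in the form of signal over background is not known here. Promoters come from RefSeq GRCm38.p6, aligned with Biopython 1.88, without the bases after the start. The members and lists were chosen with earlier results of these data known. Named genes are all members, the 3 of smallest p called in each list and a fixed set of pathway and acinar genes. The cluster's neighbours and the 2 genes most like each member are named too. Il6, Il22, Lifr, Clps, Mbl1 and the 4 named gut markers were added after their values were seen. Of the markers of other cell types, lists are given by counts.

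Deviations of same-numbered arrays correlated across genes at 0.26, 0.17, 0.11 and 0.14 for numbers 1 to 4. Different-numbered arrays gave -0.21 to 0.12, and KO 2 with WT 4 (0.125) exceeded KO 3 with WT 3 (0.110). Number was taken as a pairing, read from the data, and for numbers 3 and 4 it is weakly set apart. Alternatives were a replicate block, sex as a covariate, males alone, leaving out each array, other normalizations and variance models, a level filter and other row choices. Protein sequences were not analysed here.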

Additional observations from a re-analysis of the deposited data

How the results depend on the processing

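The calls of Reg3a and Reg3d as lower in KO held in all 20 alternatives fixed for them, and 0 Reg genes were called higher in any. The replicate block changed no call of a Reg gene (2 lower, 0 higher). It gave 17 higher and 8 lower genes over the 5 pathway lists, against 13 and 10 without it. Reg3b passed among males only (-1.04) and without WT 4, and Reg1 passed in the ordinary linear model (-0.28). With each array left out, Reg3b ranged from -0.85 to -0.50. Relative to the acinar enzymes on each array, an alternative added after seeing the data, Reg3a (-1.17) and Reg3d (-0.54) did not reach 0.05 in the exact permutation test, which is coarser than limma. The signs of Reg1 (0.27) and Reg4 (0.39) turned there by construction, since that scale adds 0.54 to every gene. Over the 5 pathway lists, higher genes numbered 3 among males only, 8 after either a second quantile normalization or cyclic loess, 20 after median centring and 6 in the ordinary linear model. Leaving out arrays gave 8 to 12, with 8 without KO 2, KO 3, KO 4 or WT 3. Lower genes numbered 2 among males only, 6 after median centring, 17 with trend and robust eBayes, 19 with array weights and 6 at a mean level of at least 4. Leaving out arrays gave 5 to 19, with 5 without KO 3, 19 without WT 1 and 6 without WT 3 or WT 4. Median centring moved the median of all genes to 0.08, against -0.06. Over all genes 3241 were higher and 1551 lower; the split was 1228 and 1142 with a second quantile normalization, 1521 and 1178 with cyclic loess, 4390 and 615 after median centring, and 770 and 145 among males only. With each array left out, higher genes numbered 1781 (without KO 4) to 3713 (without WT 1) and lower genes 459 (without KO 4) to 2357 (without WT 1), with 711 without KO 2, 742 without KO 3, 936 without KO 1, 908 without WT 3 and 913 without WT 4. The cause was not tested.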
